A study of Mus musculus with 6 samples.

Results

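Complex I genes of the nucleus were described in liver RNA of male C57BL/6 mice at 71 weeks on normal chow or on chow with polyethylene microplastic (PE-MP). The genes were the rows of the count table whose symbol was Nduf followed by a, b, c, s, v, ab or af and a number. No expression value entered this rule, but the genes were chosen with earlier results of these data known. The rule took 46 of 56674 rows: 7 core subunits, 31 accessory subunits and 8 assembly factors. The 6 libraries, 3 for each chow, came from total liver RNA by poly(A) selection and a directional kit. The chow of a library was read from its title and its treatment label, while the treatment protocol names PE-MP chow for every library, normal chow included. Both chows were given to the same strain and sex and sampled at the same age. The labels used here give no dose or particle size of PE-MP, no batch and no cage, and do not say that the libraries came from separate animals, so p-values measure the spread between libraries, which may be technical.

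Complex I, NADH:ubiquinone oxidoreductase, is the entry point of electrons from NADH into the respiratory chain of mitochondria, and it pumps protons across the inner membrane. NADH is oxidised at a flavin in the N module, electrons pass along iron-sulfur clusters to ubiquinone in the Q module, and protons move through the membrane arm. The core subunits do the catalysis and are shared with bacterial enzymes. The accessory subunits surround and stabilise the core, and the assembly factors help to build or modify the enzyme without remaining in it. Hepatocytes are rich in mitochondria and oxidise fatty acids through this chain.

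Library totals ran from 68357478 to 112566641 counts under normal chow and from 75176645 to 91898953 under PE-MP chow. Counts were scaled to counts per 1000000 counts (CPM) with TMM factors, which set libraries to a common level for most genes. The factors were 0.879 to 0.923 under normal chow and 1.07 to 1.17 under PE-MP chow, so they differed between the chows. The 13 mitochondrial mRNAs took 14.2% to 15.1% of counts under normal chow and 8.63% to 9.19% under PE-MP chow, without overlap. The 18S ribosomal row Rn18s-rs5 took 1.15% to 11.2% and 0.334% to 5.98%, with the highest share in normal chow library 2. Summed hepatocyte markers lay at 66630 to 86672 CPM under normal chow and 75608 to 82352 CPM under PE-MP chow, far above those of the other cell types.

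Most nuclear complex I genes had lower levels under PE-MP chow, and none passed the test. A difference is given as the log2 fold change, PE-MP over normal chow, with its standard error (SE) from edgeR's quasi-likelihood fit. A gene was called where its Benjamini-Hochberg adjusted p over all 18043 genes tested was under 0.05. Of the 46 genes, 45 entered the test and 0 were called lower, while 0% of all genes were called lower and 0.00554%, a single gene, higher. The smallest adjusted p among the 45 was 0.124 and limma-voom also called 0, but DESeq2 called 9 lower, where it called 2.57% of all genes lower. At an unadjusted p under 0.05, 32 of the 45 were lower and 0 higher, beside 8.82% and 9.1% of all genes. With library totals alone, without TMM factors, these counts were 2 lower and 1 higher. The shares of 8.82% and 9.1% belong to the fit with TMM factors and cannot be set beside these 2 counts. With library totals alone the median log2 fold change of all genes was 0.32, and shares of all genes are not given for that fit. The 3 values under PE-MP chow all lay below the 3 under normal chow for 35 of the 45 and all above for 1, beside 11.8% and 14.2% of all genes. The log2 fold change was negative for 43 of the 45, with a median of -0.45, against a median of 0.02 over all genes tested.

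The direction of single genes depended on the scaling. A change of library factors moves all genes by nearly the same amount, so it cannot test their place below other genes. With library totals alone, the median of all genes moved to 0.32 and that of the complex I genes to -0.16. Then 34 of 45 were negative, and 43 of 45 lay below the median of all genes, the same count as with TMM factors. Relative to the median of all genes, the core, accessory and assembly genes had medians of -0.35, -0.50 and -0.33 with TMM factors and -0.36, -0.50 and -0.33 with library totals alone. As a share of all counts, the 46 genes took 0.353%, 0.276% and 0.353% under normal chow and 0.294%, 0.290% and 0.310% under PE-MP chow, which overlapped. In bulk liver, fewer cells of a type and less RNA per cell cannot be told apart.

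**Figure D1:**
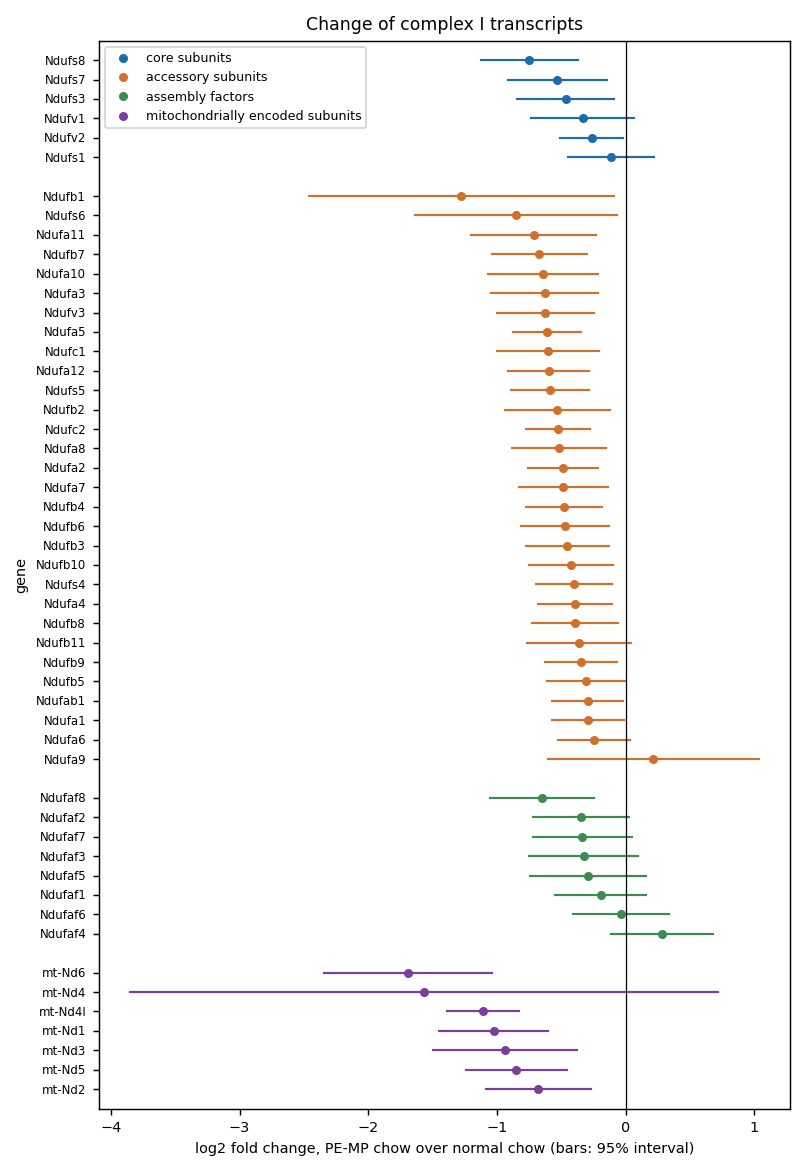
Points give the log2 fold change (PE-MP over normal chow, x axis) of tested complex I genes (y axis, 1 nuclear gene not shown), and bars its 95% interval, with colours for core, accessory, assembly and mitochondrially encoded genes. With TMM factors the nuclear genes plotted lie left of 0 except Ndufa9 and Ndufaf4, while with library totals alone 34 of the 45 tested were negative, and mt-Nd4 has the widest bar.

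One library under normal chow stood apart for these genes. Normal chow library 2 had the lowest of the 3 normal chow values for 35 of the 45 genes and the highest for 1, while it was lowest for 38.9% and highest for 37.8% of all genes. Normal chow library 3 was the highest for 30 of the 45, beside 28.1% of all genes. Without normal chow library 2, edgeR called 21 of the 45 lower (4 core, 16 accessory, 1 assembly), where it called 3.27% of all genes lower. No label gives a reason to leave this library out, and it was kept in every other value given here unless stated.

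**Figure D2:**
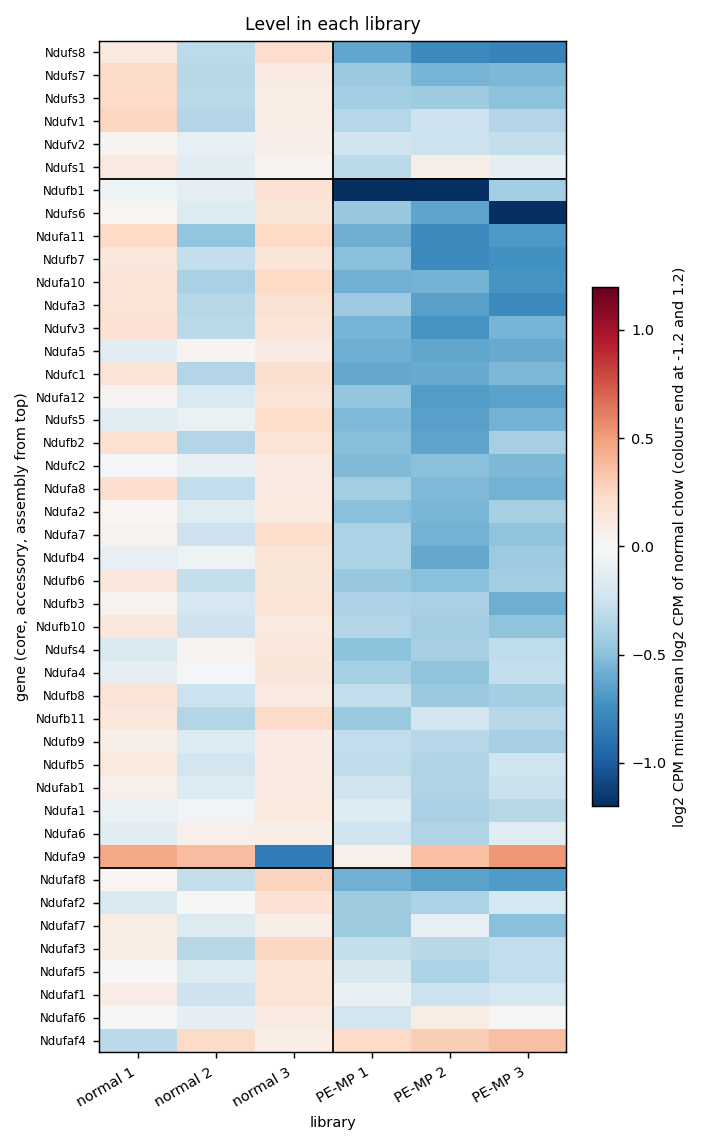
Colours give the log2 CPM of tested genes (rows, 1 not shown, core, accessory and assembly from top) in each library (columns) minus its mean under normal chow, with colours ending at -1.2 and 1.2. Normal chow library 2 is blue for most genes but paler than the PE-MP libraries, and Ndufb1, Ndufs6 and Ndufa9 are uneven within a chow.

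The start sites of genes from each class are shown because many promoters of complex I genes are known to hold sites for shared factors. Each line below gives the 250 bases before the transcription start in the RefSeq table of build GRCm38.p6, 5′ to 3′ on the gene's strand, for the gene of smallest p in its class with a match wholly upstream and a start at most 10 bases inside its GENCODE gene. Capitals mark matches to SP1 (GGGCGG) or to the ETS family (CCGGAAG) on either strand. Ndufv2 is a core subunit, from chr17:66101560-66101809 on the minus strand; Ndufv3 is an accessory subunit, from chr17:31519865-31520114 on the plus strand; and Ndufaf8 is an assembly factor, from chr11:120098684-120098933 on the plus strand.
Ndufv2: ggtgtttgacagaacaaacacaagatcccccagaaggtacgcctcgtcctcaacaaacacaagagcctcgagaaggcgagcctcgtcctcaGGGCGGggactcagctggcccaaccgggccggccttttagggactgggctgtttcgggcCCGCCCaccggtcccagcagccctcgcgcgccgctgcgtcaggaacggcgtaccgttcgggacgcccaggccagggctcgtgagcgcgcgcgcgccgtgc
Ndufv3: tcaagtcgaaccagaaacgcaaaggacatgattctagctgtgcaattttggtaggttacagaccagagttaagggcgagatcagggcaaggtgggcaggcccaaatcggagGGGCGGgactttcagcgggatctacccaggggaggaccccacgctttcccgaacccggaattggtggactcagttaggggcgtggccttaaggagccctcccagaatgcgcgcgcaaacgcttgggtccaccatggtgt
Ndufaf8: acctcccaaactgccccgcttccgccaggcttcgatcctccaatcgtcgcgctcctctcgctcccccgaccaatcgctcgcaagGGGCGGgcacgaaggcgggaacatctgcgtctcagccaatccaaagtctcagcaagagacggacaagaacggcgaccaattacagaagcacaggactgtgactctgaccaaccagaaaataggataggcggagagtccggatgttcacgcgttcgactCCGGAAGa

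Windows from 250 bases before to 50 after the start were found for 41 of the 46 genes. On both strands, SP1 letters stood in 21 of the 41 (51.2%, against 38.2% of 27025 genes in the table). YY1 letters (AANATGGCG) stood in 8 (19.5%, against 2.76%), ETS letters in 6 (14.6%, against 9.93%) and NRF1 letters (GCGCATGCG, which overlaps its own reverse complement) in 4 (9.76%, against 1.95%). ERR letters (TCAAGGTCA) stood in 0 of 41, against 0.466% of genes. A match describes letters in the window and shows no binding.

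Of the 7 core genes, all had negative log2 fold changes with TMM factors, from -0.75 to -0.12 with a median of -0.33, though some, Ndufv2 and Ndufs1 among them, turned positive with library totals alone (0.04 and 0.19). By edgeR 0 were called and 4 were lower at an unadjusted p under 0.05, beside 8.82% of all genes. DESeq2 called 1 lower, Ndufs8, beside 2.57% of all genes. The largest difference was in Ndufs8, which carries iron-sulfur clusters next to the quinone site. Ndufs8 stood at 94.0, 69.7 and 100.3 CPM under normal chow and at 56.4, 51.1 and 49.8 CPM under PE-MP chow. All PE-MP values lay below all normal chow values, with normal chow library 2 nearest to them. The log2 fold change was -0.75 ± 0.16 (SE, edgeR adjusted p = 0.132).

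Ndufs7 and Ndufs3, also of the Q module, were less far apart. Ndufs7, which holds the last iron-sulfur cluster before ubiquinone, stood at 88.0, 59.5 and 80.9 CPM under normal chow and at 55.3, 51.2 and 51.5 CPM under PE-MP chow (log2 fold change -0.53 ± 0.16, edgeR adjusted p = 0.187). Ndufs3, an early building block of the Q module, stood at 151, 103 and 137 CPM and at 96.1, 95.8 and 91.6 CPM (-0.46 ± 0.16, edgeR adjusted p = 0.213). In both genes the PE-MP libraries lay close together, just under normal chow library 2.

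In the N module, Ndufv2 and Ndufv1 accept electrons from NADH. Ndufv2 stood at 110.4, 101 and 113 CPM under normal chow and at 91.3, 90.7 and 88.6 CPM under PE-MP chow (log2 fold change -0.26 ± 0.10, edgeR adjusted p = 0.251). Ndufv1, which binds NADH and the flavin, stood at 199.9, 132 and 179 CPM and at 132, 141 and 131 CPM (-0.33 ± 0.17, edgeR adjusted p = 0.346). Ndufv2 did not overlap between chows, whereas the Ndufv1 level of normal chow library 2 lay among those of the PE-MP libraries. The value of Ndufv1 was -0.21 without normal chow library 1 and -0.49 without library 2. Ndufs1, the large subunit with several iron-sulfur clusters, had the smallest difference of the core genes. It stood at 53.2, 44.8 and 50.5 CPM and at 39.4, 51.9 and 45.7 CPM (-0.12 ± 0.14, edgeR adjusted p = 0.691). PE-MP library 2 lay above 2 of the normal chow libraries, the 95% interval ran from -0.45 to 0.22, and leaving out PE-MP library 1 gave -0.01.

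Of the 30 accessory genes tested, 29 had negative log2 fold changes with TMM factors and 26 with library totals alone, and the median with TMM factors was -0.49. By edgeR 0 of the 30 were called and 27 had an unadjusted p under 0.05, while DESeq2 called 7: Ndufa2, Ndufa5, Ndufa12, Ndufb7, Ndufc2, Ndufs5 and Ndufv3. The chows did not overlap for 28 of the 30, all lower under PE-MP chow, beside 11.8% of all genes. Over all genes, 8.82% were lower at an unadjusted p under 0.05 by edgeR, and DESeq2 called 2.57% lower. The smallest adjusted p was that of Ndufa5, a small subunit of the Q module. Ndufa5 stood at 45.0, 50.7 and 53.0 CPM under normal chow and at 32.9, 32.0 and 32.5 CPM under PE-MP chow (log2 fold change -0.61 ± 0.11, edgeR adjusted p = 0.124). The PE-MP libraries were nearly equal and all lay below the lowest normal chow library, which here was library 1.

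Accessory genes of the membrane arm followed. Ndufc2 stood at 51.1, 48.7 and 55.7 CPM under normal chow and at 35.7, 36.6 and 35.6 CPM under PE-MP chow (-0.53 ± 0.11, edgeR adjusted p = 0.128). Ndufs5, which sits on the intermembrane face, stood at 53.9, 56.0 and 68.2 CPM and at 40.9, 37.5 and 40.0 CPM (-0.59 ± 0.13, edgeR adjusted p = 0.135). Ndufb7, another subunit of that face, stood at 89.5, 66.9 and 89.9 CPM and at 57.5, 48.0 and 49.3 CPM (-0.67 ± 0.16, edgeR adjusted p = 0.138). None of these 3 genes overlapped between chows. Normal chow library 2 was low for Ndufb7 but not set apart for Ndufs5. Among the other membrane arm genes of small p, log2 fold changes were -0.72 ± 0.20 for Ndufa11, -0.64 ± 0.18 for Ndufa10, -0.63 ± 0.18 for Ndufa3, -0.60 ± 0.17 for Ndufc1 and -0.48 ± 0.13 for Ndufb4. Ndufa10 resembles deoxynucleoside kinases in fold, and the others are small subunits that span or line the membrane. Their edgeR adjusted p values lay between 0.154 and 0.175.

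In the N module, Ndufa12 takes the place that the assembly factor Ndufaf2 holds before it. Ndufa12 stood at 57.8, 49.6 and 62.6 CPM under normal chow and at 40.8, 35.4 and 36.1 CPM under PE-MP chow (log2 fold change -0.60 ± 0.13, edgeR adjusted p = 0.135). Ndufv3, a small subunit beside the flavin site, stood at 104, 73.7 and 103 CPM and at 62.7, 56.6 and 62.6 CPM (-0.63 ± 0.16, edgeR adjusted p = 0.150). Ndufa2, which has a thioredoxin-like fold, stood at 85.4, 75.8 and 91.2 CPM and at 59.1, 57.5 and 63.5 CPM (-0.49 ± 0.12, edgeR adjusted p = 0.140). All PE-MP values of these genes lay below all normal chow values.

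Ndufa4 carries a complex I symbol by its history, and its protein is a subunit of complex IV, cytochrome c oxidase. It stood at 238, 254 and 286 CPM under normal chow and at 196, 186 and 210.1 CPM under PE-MP chow, without overlap (log2 fold change -0.40 ± 0.12, edgeR adjusted p = 0.187). By structural group, the median log2 fold change was -0.44 for the 10 N module genes, -0.50 for the 6 Q module genes and -0.52 for the 19 tested membrane arm genes, and the differences between these groups were not tested. The accessory genes not named by p, level or extreme change numbered 14. With TMM factors all 14 were negative, from -0.85 to -0.25 with a median of -0.40. By edgeR 12 were lower at an unadjusted p under 0.05, beside 8.82% of all genes. With library totals alone 11 of the 14 were negative, and 12 after removal of the trend with length and GC content.

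Accessory genes with uneven libraries were Ndufb1, Ndufs6 and Ndufa9, of which Ndufs6 was picked out after its values were seen. Ndufb1, a small membrane arm subunit, had the most negative value of the nuclear genes. It stood at 45.3, 43.3 and 53.2 CPM under normal chow and at 9.05, 14.3 and 35.2 CPM under PE-MP chow (log2 fold change -1.28 ± 0.49, edgeR adjusted p = 0.252). PE-MP libraries 1 and 2 were far below PE-MP library 3, and the value was -2.02 without PE-MP library 3. Ndufs6, a zinc-binding subunit of the N module, stood at 99.0, 86.9 and 108 CPM and at 71.4, 62.8 and 28.8 CPM (-0.85 ± 0.33, edgeR adjusted p = 0.251). There PE-MP library 3 was the low one, and the value was -0.55 without it.

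Ndufa9, a Q module subunit of the short-chain dehydrogenase family, was the accessory gene with a positive value. It stood at 68.8, 64.4 and 27.8 CPM under normal chow and at 51.9, 63.8 and 71.3 CPM under PE-MP chow (log2 fold change 0.22 ± 0.34, edgeR adjusted p = 0.770). Normal chow library 3 was far below the other 2, the chows overlapped, and the value was -0.10 without that library. Ndufa4 and Ndufa9 lie above the accessory median of -0.49, and Ndufb1 and Ndufs6 below it. Leaving out all of them could therefore not move that median and is no check of it. Ndufa13, also known as Grim19, had 0 counts in all 6 libraries and was not tested. A count of 0 allows up to 3 counts, or 0.0267 to 0.0439 CPM, for counting error only. Its gene model overlaps Yjefn3 on the same strand, which had 0 to 28 counts in a library, so how reads of the overlap were assigned bears on this row.

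The 8 assembly factor genes had a median of -0.31, and 7 were negative with TMM factors, of which Ndufaf1, Ndufaf5 and Ndufaf6 turned positive with library totals alone (0.10, 0.01 and 0.27). By edgeR 0 were called and 1 of the 8, Ndufaf8, was lower at an unadjusted p under 0.05, near the 8.82% of all genes. DESeq2 called the same gene, where it called 2.57% of all genes lower. The class was not tested against these shares. Ndufaf8, the partner that holds Ndufaf5 stable, stood at 14.6, 11.8 and 17.3 CPM under normal chow and at 9.66, 9.21 and 9.02 CPM under PE-MP chow (log2 fold change -0.65 ± 0.17, edgeR adjusted p = 0.154). All PE-MP values lay below all normal chow values. Ndufaf5, which hydroxylates an arginine of Ndufs7, stood at 2.73, 2.41 and 3.03 CPM and at 2.38, 2.09 and 2.21 CPM (-0.29 ± 0.19, edgeR adjusted p = 0.452). The highest PE-MP value was just under the lowest normal chow value.

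Ndufaf3 and Ndufaf4 act together on the Q module. Ndufaf3 stood at 11.7, 8.67 and 13.0 CPM under normal chow and at 8.97, 8.69 and 8.91 CPM under PE-MP chow (log2 fold change -0.33 ± 0.18, edgeR adjusted p = 0.379). Ndufaf4 stood at 12.1, 17.7 and 16.0 CPM and at 17.8, 18.5 and 19.4 CPM (0.28 ± 0.17, edgeR adjusted p = 0.415). Ndufaf4 was the single gene of the 45 with all PE-MP values above all normal chow values, by a narrow gap to normal chow library 2. Its value was 0.14 without normal chow library 1 and -0.01 after removal of the trend with length and GC content, and that of Ndufaf3 was -0.20 without normal chow library 3. For Ndufaf3, normal chow library 2 lay just below all PE-MP libraries.

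Ndufaf2 stays on the enzyme late in assembly. Ndufaf2 stood at 7.67, 8.72 and 9.83 CPM under normal chow and at 6.46, 6.66 and 7.49 CPM under PE-MP chow, without overlap (log2 fold change -0.35 ± 0.16, edgeR adjusted p = 0.306). Ndufaf7, a methyltransferase, stood at 13.3, 11.2 and 13.2 CPM and at 9.36, 11.7 and 8.84 CPM (-0.34 ± 0.16, edgeR adjusted p = 0.329). PE-MP library 2 lay above normal chow library 2 there. Ndufaf1, which works in the membrane arm assembly complex with Acad9 and Ecsit, had -0.19 ± 0.15 (edgeR adjusted p = 0.520), and Ndufaf6, an early factor, -0.04 ± 0.16 (edgeR adjusted p = 0.922). Both overlapped between chows, with Ndufaf1 at 17.0 to 22.7 CPM and at 17.0 to 19.0 CPM, and Ndufaf6 at 5.72 to 6.66 CPM and at 5.32 to 6.57 CPM.

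**Figure D3:**
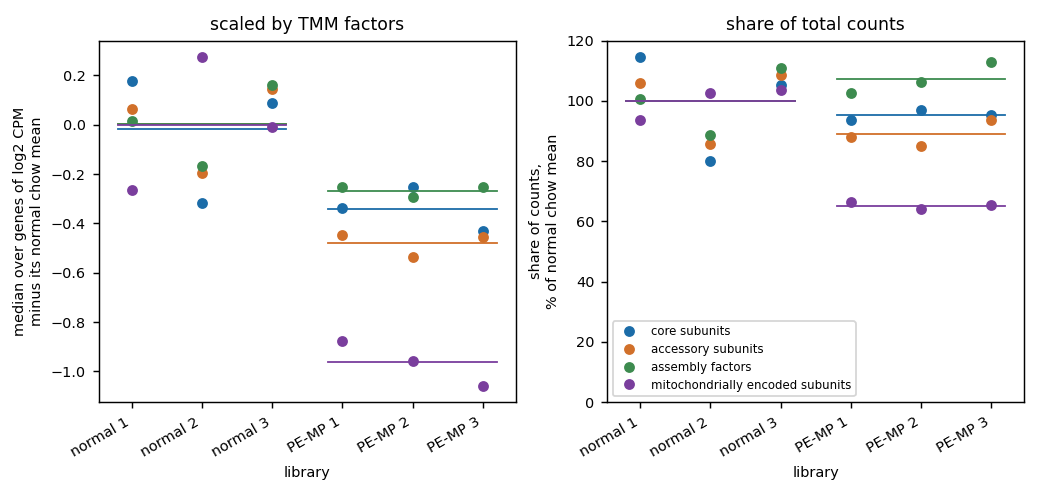
Left: for each library (x axis), the median over the genes of a class of log2 CPM minus the normal chow mean, with a line at the mean of each chow. Right: the class's share of all counts as a percent of its normal chow mean. With TMM factors the PE-MP libraries lie lower in each class, except that core normal chow library 2 (-0.32) lies among them; as a share of counts the chows overlap in all 3 nuclear classes and not for the mitochondrially encoded subunits.

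Summed over class, core genes came to 853 ± 134 CPM under normal chow and 663 ± 30.2 CPM under PE-MP chow (SD, n = 3 each). Accessory genes came to 2685 ± 292 and 1940 ± 49.5 CPM, and assembly factors to 91.6 ± 9.37 and 79.7 ± 0.696 CPM. The core sums were 956, 702 and 902 CPM under normal chow and 673, 686 and 628 CPM under PE-MP chow, so normal chow library 2 was only slightly above the PE-MP libraries. As a share of all counts the assembly factors had the higher mean under PE-MP chow, 0.00885% ± 0.000434 against 0.00825% ± 0.000919 under normal chow, with overlap. In each class the normal chow libraries were more spread than the PE-MP libraries.

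The 7 complex I subunits encoded in mitochondrial DNA form the membrane core. Their sum was 55764 ± 4167 CPM under normal chow and 29527 ± 1549 CPM under PE-MP chow (SD, n = 3 each). All 7 log2 fold changes were negative, also with library totals alone, with a median of -1.02 beside -0.45 for the nuclear genes; the difference between these medians was not tested. By edgeR 0 were called and 6 were lower at an unadjusted p under 0.05, beside 8.82% of all genes. DESeq2 called 6, where it called 2.57% of all genes lower. The smallest adjusted p was that of mt-Nd4l, at 14454, 14556 and 14366 CPM under normal chow and 6821, 6346 and 6944 CPM under PE-MP chow (-1.11 ± 0.12, edgeR adjusted p = 0.0599). mt-Nd6, encoded on the other strand from the rest, stood at 187, 218 and 113 CPM and at 59.0, 41.4 and 60.0 CPM (-1.69 ± 0.28, edgeR adjusted p = 0.123), and mt-Nd1 had -1.02 ± 0.18 (edgeR adjusted p = 0.124). For these genes every PE-MP library lay below every normal chow library, and normal chow library 2 was the highest for mt-Nd4l and mt-Nd6 and the lowest of its chow for mt-Nd1.

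mt-Nd4, which shares a transcript with mt-Nd4l, was chosen after its values were seen because it did not follow its neighbour. It stood at 407, 1125 and 599 CPM under normal chow and at 412, 283 and 25.3 CPM under PE-MP chow (-1.56 ± 0.94, edgeR adjusted p = 0.427). PE-MP library 3 was far below the others, and PE-MP library 1 lay just above the lowest normal chow library. How reads shared by overlapping mitochondrial genes, or by their nuclear copies, were counted is not given in the sources used here.

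Of 15 assembly genes without an Nduf symbol, Coa1 was not matched to a row and 14 were tested. Their median log2 fold change was -0.17, with 10 negative and 0 called by edgeR. At an unadjusted p under 0.05, 3 were lower and 0 higher, beside 8.82% and 9.1% of all genes, a difference that was not tested. These 3 were Dmac1, a factor of the distal membrane arm (-0.52 ± 0.15, edgeR adjusted p = 0.175), Aifm1, which imports small intermembrane proteins with Chchd4 (-0.36 ± 0.12, edgeR adjusted p = 0.208), and Acad9 (-0.42 ± 0.16, edgeR adjusted p = 0.238). Aifm1 stood at 89.0, 81.4 and 91.4 CPM under normal chow and at 62.9, 75.9 and 65.7 CPM under PE-MP chow, without overlap.

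Genes for known regulators of mitochondrial gene expression did not lie lower as a list. The 8 regulators (Ppargc1a, Ppargc1b, Esrra, Nrf1, Gabpa, Gabpb1, Yy1 and Tfam) had a median of 0.21, with 0 called by edgeR. There were 5 positive and 3 negative values. At an unadjusted p under 0.05, 0 were lower and 0 higher, beside 8.82% and 9.1% of all genes, a difference that was not tested. Nrf1 was uneven within PE-MP chow (8.98, 2.46 and 6.48 CPM) and Gabpa within normal chow (13.6, 41.1 and 30.1 CPM). Gabpb1, a subunit of an ETS-family factor, stood at 5.15, 5.81 and 5.56 CPM under normal chow and at 7.29, 6.63 and 6.31 CPM under PE-MP chow (0.29 ± 0.15, edgeR adjusted p = 0.345). Its PE-MP values lay above its normal chow values. Tfam, which packages and transcribes mitochondrial DNA, had a log2 fold change of -0.01 ± 0.12 (edgeR adjusted p = 0.974).

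Levels of different genes were compared as CPM per kb of transcript under normal chow. The median was 87.6 CPM per kb for core genes, 87.6 for accessory genes and 7.33 for assembly factors. Among core genes, Ndufs1 stood at 18.6 ± 1.60 and Ndufs3 at 125 ± 23.8 CPM per kb, and assembly factors from 2.34 ± 0.265 (Ndufaf5) to 18.7 ± 3.55 CPM per kb (Ndufaf8), with SDs over 3 libraries. Ndufa4 was the highest accessory gene, at 425 ± 39.6 CPM per kb, followed by Ndufb9 at 333 ± 31.6 CPM per kb, a gap beyond their SDs. Ndufb2 was the lowest at 11.6 ± 2.28 CPM per kb, but this rests on a transcript of 4371 nucleotides, and with its shortest principal transcript of 455 nucleotides the level was 112 CPM per kb. Ndufb2 stood at 57.0, 39.4 and 56.1 CPM under normal chow and at 35.2, 32.3 and 38.1 CPM under PE-MP chow, which did not overlap.

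**Figure D4:**
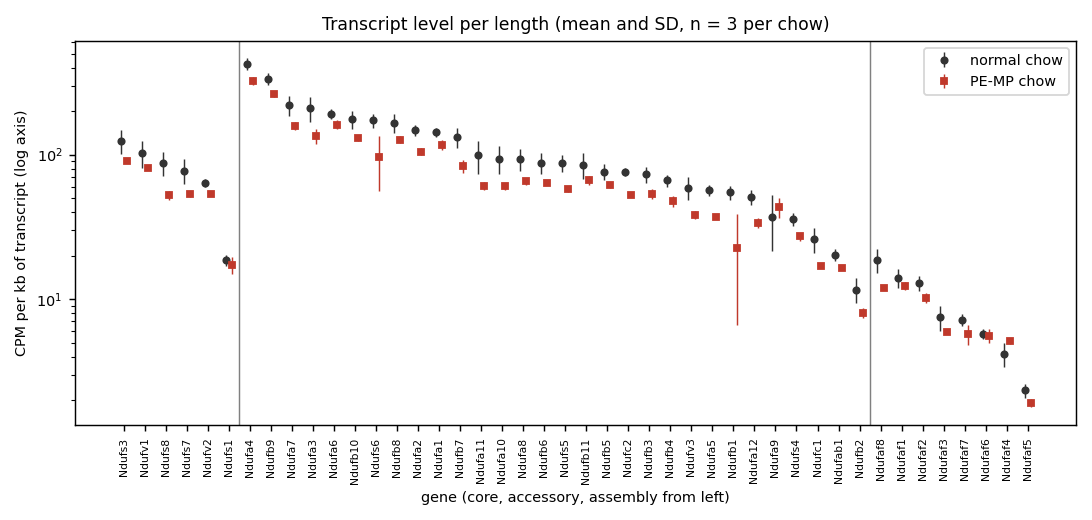
Points give the mean level in CPM per kb of transcript (log axis) of tested genes (1 not shown) under normal chow (circles) and PE-MP chow (squares), and bars the SD over 3 libraries, with core, accessory and assembly genes from left. Assembly factors lie mostly below the subunits, at 2.34 to 18.7 CPM per kb, and Ndufs6, Ndufb1 and Ndufa9 have wide bars in one chow.

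The complex I genes are short, with a median transcript of 971 nucleotides against 2575 over all genes tested, and a median GC content of 51.5% against 49.9%. Across the 45 genes, GC content and the log2 fold change had Pearson's r = -0.50 and Spearman's rho = -0.48, and over 17375 genes rho was -0.20. Length and the log2 fold change had r = 0.39 and rho = 0.36, and rho over all genes was 0.26. Across the same genes, GC content and the ratio of normal chow library 2 to the mean of the other 2 normal chow libraries had r = -0.49 and rho = -0.45, and over 17295 genes rho was -0.37. These points share their libraries, and genes are not independent replicates. With the trend of all genes with length and GC content taken out, 41 of the 45 were negative, with a median of -0.34 against -0.003 over all genes. The part of GC content or length in the differences was not tested further.

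**Figure D5:**
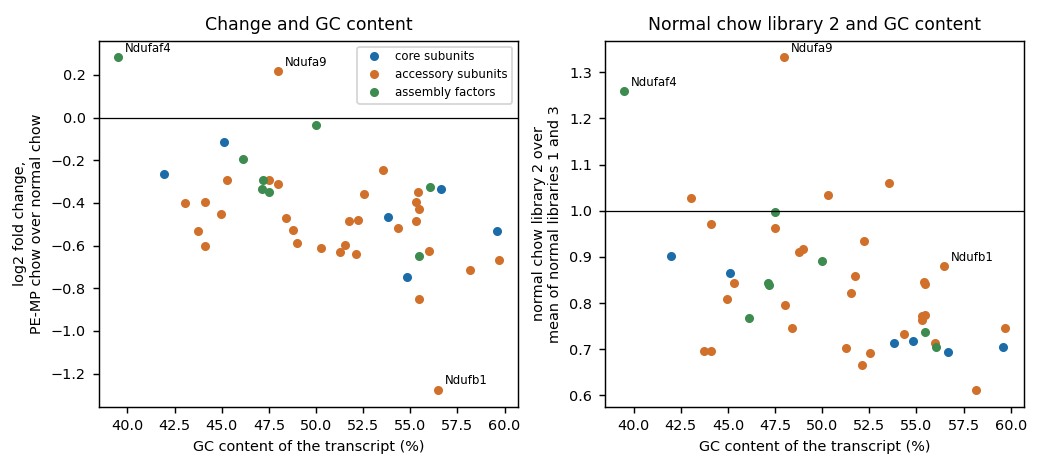
Each point is a tested complex I gene (1 not shown), coloured by class, with the GC content of its transcript in percent on the x axis. Left: the log2 fold change (PE-MP over normal chow) falls with GC content, r = -0.50 over all 45; right: the ratio of normal chow library 2 to the mean of normal chow libraries 1 and 3 does too, r = -0.49.

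Markers of other cell types were measured beside these genes, and no marker was called by edgeR. Summed markers of sinusoidal endothelium stood at 104 to 131 CPM under normal chow and 147 to 188 CPM under PE-MP chow, without overlap and with 8 of 8 positive. Kupffer cell markers stood at 131 to 174 and 172 to 286 CPM, with 10 of 10 positive, and RNAs retained in the nucleus at 171 to 488 and 389 to 700.2 CPM, with 5 of 5 tested positive; both lists overlapped between chows. Markers of B and plasma cells stood at 18.6 to 56.5 and 5.22 to 9.33 CPM, without overlap and with 5 of 5 negative. Stellate cell markers stood at 385 to 450.1 and 235 to 415 CPM, with 6 of 7 negative. Cholangiocyte markers stood at 12.4 to 26.9 and 19.3 to 24.4 CPM, with 3 of 5 positive. Both lists overlapped between chows. Of the hepatocyte markers, 6 of 8 were positive and 2 negative. Of adipocyte markers 1 of 4 was tested, and this gene stood at 0.183 to 0.346 CPM under normal chow and 0 CPM under PE-MP chow. Lep was at 0 in all libraries. Markers that were not tested are in none of the sums given here. Skeletal muscle markers were not tested, with Ckm and Myh4 at 0 in all libraries. The part of these cells or RNAs in the complex I differences was not tested.

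Reads of some complex I genes could be divided with other genes. In the GENCODE M21 annotation, 21 of the 45 members with a gene model overlap another gene, 6 of them on the same strand and 17 on the opposite strand. Rows named as pseudogenes of members include Ndufs5-ps, at 230, 227 and 147 counts under normal chow and 486, 47 and 549 under PE-MP chow, and Ndufa12-ps, at 119, 68 and 138 counts and 37, 63 and 84. Ndufs5-ps was uneven in both chows and held 1.53% to 12.8% as many counts as Ndufs5, and Ndufa12-ps held 0.960% to 2.94% as many as Ndufa12. Ndufb4c, named like Ndufb4 and with the most counts of such rows, had 577, 393 and 832 counts under normal chow and 178, 452 and 637 under PE-MP chow. Since the counting program and its strand setting are not given, values of genes with such rows or overlaps are uncertain to that extent.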

How the data were processed

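RNA of 6 liver libraries was measured, 3 for each chow, grouped by their labels. The authors deposited unnormalised whole-number counts for each gene, as library totals show. The submitters' processing notes name bcl2fastq and build GRCm39. Which aligner, counter, annotation and strand setting made the counts is not given in the sources used here. Differences were fitted over all genes with edgeR 4.0.16 in R 4.3.3 (quasi-likelihood, robust, TMM factors, filterByExpr; two-sided p, Benjamini-Hochberg, threshold 0.05). Intervals are 95% intervals from the coefficient's F statistic. Alternatives were other factors, filters, DESeq2 1.42.0, limma-voom (limma 3.58.1), each library left out, a replicate block, a length and GC trend (mgcv 1.9.3) and, added after seeing the data, library totals alone and 4 accessory genes left out. The fit was checked on simulated counts. Lengths, GC content and overlaps came from GENCODE M21 (GRCm38) by symbol, with 91.7% of symbols matched, and promoters from RefSeq (GRCm38.p6). The table of all libraries matched the per-library files on every row, and no replicate pair was a repeat of one library. Named with values were core and assembly genes (1 core gene stays in counts and medians and is not reported here), Ndufa4, the 12 accessory genes of smallest p, and those of extreme change or level. Members and lists were chosen with earlier results of these data known. Counting intervals cover counting error only.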

Additional observations from a re-analysis of the deposited data

How the results depend on the processing

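No nuclear complex I gene was called by edgeR with RLE or upper-quartile factors, without the filter, with a stricter one, or with abundant and mitochondrial genes left out. Library totals alone gave medians of -0.037 (core), -0.18 (accessory), -0.0090 (assembly) and -0.73 (mitochondrially encoded), with 2 genes lower and 1 higher at an unadjusted p under 0.05, and turned 9 nuclear genes positive, among them Ndufaf1 (0.10), Ndufaf5 (0.0091), Ndufaf6 (0.27), Ndufs1 (0.19) and Ndufv2 (0.038). DESeq2 called 9 lower: 1 core, 7 accessory and 1 assembly gene, and 6 mitochondrial mRNAs. Of these mRNAs 1 was called with no filter, a stricter filter or limma-voom, where 23, 22 and 15 of all genes were called. Leaving out abundant and mitochondrial genes gives no value for these mRNAs. Leaving out 1 library at a time, calls ran from 0 to 21 (core 0 to 4, accessory 0 to 16, assembly 0 to 1, mitochondrial 0 to 4), with the upper ends without normal chow library 2; genes at an unadjusted p under 0.05 ran from 18 to 36 lower and from 0 to 1 higher; and medians ran from -0.49 to -0.25 (core), -0.59 to -0.41 (accessory), -0.36 to -0.21 (assembly) and -1.11 to -0.93 (mitochondrial). The 18 and the assembly median of -0.21 came without normal chow library 3. Over all genes, 1075 were called without normal chow library 2 and 1 to 3 without any other library. Over the same fits Ndufa9 ran from -0.097 to 0.43 and Ndufaf6 from -0.10 to 0.054 (0.018 when normal chow library 3 was left out and 0.054 when PE-MP library 1 was). After removal of the trend with length and GC content, which gives no test, Ndufaf4 was -0.013 and Ndufaf6 0.083. Causes were not tested. Whether the replicate numbers pair the libraries is not known. Same-numbered deviations correlated at 0.0027, 0.0405 and 0.1359, the last being the highest of all pairs, and differently numbered ones at -0.1479 to 0.1197. With 3 libraries for each chow these values cannot settle it. With the replicate block, 0 of all genes were called. Of the complex I genes 27 were lower at an unadjusted p under 0.05, and medians were -0.31, -0.48 and -0.30. Shares of all genes at an unadjusted p under 0.05 are given only for edgeR with TMM factors, all libraries and no block. The counts at that threshold in this section therefore have no share beside them and are no result about these genes. The lowest count of a tested complex I gene in a library was 145 (Ndufaf5), and Ndufa13 had no counts to compare.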
